A study of Mus musculus with 12 samples.

Results

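The genes described here are the guidance ligands and receptors of the semaphorin, ephrin, Slit and netrin systems. They were chosen by name among protein-coding mouse genes: symbols starting with Sema3 to Sema7, Plxn, Epha, Ephb, Efna, Efnb, Robo, Ntn or Unc5, together with Nrp1, Nrp2, Slit1 to Slit3 and Dcc. The rule found 72 of 21906 protein-coding genes. They comprised 20 semaphorins, 9 plexins, 2 neuropilins, 8 ephrins, 14 Eph receptors, 3 Slits, 4 Robo receptors, 5 netrins, 5 netrin receptors and 2 genes caught by their names alone, Unc50, which encodes a Golgi membrane protein, and Unc5cl. No measured value entered the choice.

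RNA was sequenced from BMEL cells, a bipotential line of mouse embryonic liver progenitors that can form hepatocytes or bile duct cells. All of the cells came from 1 line, isolated from a mouse with floxed Cdk8 (CDK8F/F), and all were collected while growing exponentially on collagen in medium with serum, insulin, IGF2 and EGF. There were 4 groups of 3 libraries: Wild type cells without transformation (called untransformed), Wild type cells transformed with H-RasG12V, a constitutively active form of the GTPase H-Ras (called RasG12V), and H-RasG12V cells labelled Cdk8 -/- or Cdk19 -/-. Cdk8 and Cdk19 are closely related kinases that belong to Mediator, a coactivator of transcription by RNA polymerase II. How many clones or cultures stand behind the 3 libraries of a group is not in the labels, and the p-values therefore reflect only how these libraries vary, possibly for technical reasons. The design asks how transformation by Ras changed expression, and how loss of either kinase changed it in transformed cells.

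These families are best known for steering growing axons, and many also act in blood vessels and epithelia. Semaphorins signal through plexins, whose cytoplasmic part inactivates small GTPases of the Ras and Rap type; most secreted class 3 semaphorins need a neuropilin as co-receptor. Ephrins are held at the cell surface and bind Eph receptor tyrosine kinases on neighbouring cells, with signals running in both directions. Slits are secreted ligands of Robo receptors, and netrins are secreted ligands of Dcc, which mostly mediates attraction, and of the Unc5 receptors, which mediate repulsion.

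Levels are counts scaled to library size by TMM (CPM), and each library held 24823560 to 36879661 gene counts, so that 3 counts, the limit that a count of 0 allows, stood for 0.0814 to 0.123 CPM. Hras itself was at 40.7 to 57.5 CPM in the untransformed libraries, 313 to 537 in RasG12V, 444 to 456 in those labelled Cdk8 -/- and 402 to 439 in those labelled Cdk19 -/-. Cdk8 RNA was at 56.3, 56.4 and 50.9 CPM in RasG12V and 41.4, 43.8 and 43.3 in the libraries labelled Cdk8 -/-. Cdk19 RNA was at 64.7, 67.2 and 93.6 CPM in RasG12V and 51.2, 45.03 and 53.1 in the libraries labelled Cdk19 -/-. Both transcripts were thus lower but still present under their labels; counts over a whole gene do not show whether a deleted exon is missing, so these levels do not check the labels. RasG12V replicate 3 stood apart: it lay at -53.2 on the second principal component of log2 CPM, where the other 11 libraries ran from -15.8 to 15.99. Untransformed replicate 3 lay at -58.7 on the first component, against -77.5 and -74.0 for its group. Calls of guidance genes, and counts of pathway lists, are therefore also given without both of these libraries where that changes them.

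The markers of the cells themselves were present: Krt8, Krt18, Krt19 and Hnf4a were abundant in every group, Epcam was nearly absent with 4 to 9 counts a group, and the summed level of the 12 epithelial and hepatic progenitor markers was 8390 to 10100 CPM in untransformed and 6338 to 8143 CPM in RasG12V libraries. Of the 11 tested, 2 rose and 6 fell with RasG12V (72.7%, beside 23.4% of all genes tested). Without both replicates 3, 2 rose and 9 fell, beside 40.0% of all genes. Because guidance genes are also expressed by neurons, endothelium and stroma, markers of those cells were read as well. The summed level of 8 neuron and glia markers was 26.6 to 34.5 CPM in untransformed and 3.32 to 6.05 CPM in RasG12V libraries, nearly all of it Map2 (29.0 and 3.75 CPM on average), while Sox10 was at 0 in every library and Rbfox3 had 1 count in all. The 7 endothelial markers summed to 0.0710 to 0.217 CPM in untransformed and 0.401 to 0.573 CPM in RasG12V libraries, with Kdr and Emcn at 0 throughout; Cdh5, the only one tested, rose by 2.35 on the log2 scale. The 8 stellate and fibroblast markers summed to 0.532 to 1.13 CPM and 1.69 to 2.21 CPM, and Pdgfra, the only one tested, rose by 1.59. The sum of the 6 macrophage and leukocyte markers, 33.3 to 60.4 CPM in all, was mostly Cd14, and Adgre1 and Tyrobp were at 0 throughout. With RasG12V, 1 of the 4 tested rose and 0 fell, beside 23.4% of all genes called. Without both replicates 3, 0 rose and 0 fell (40.0% of all genes). Csf1r went from 0.212 to 0.573 CPM on average, and Ptprc from 0.39 to 0.29 CPM. The 6 mesothelial markers summed to 1371 to 1677 CPM in untransformed and 1295 to 1377 in RasG12V libraries, nearly all of it Msln, with Wt1 at 3 to 5 counts a group. Of the 4 tested, 0 rose and 2 fell with RasG12V (50.0%, beside 23.4% of all genes). Without both replicates 3, 1 rose and 2 fell (40.0% of all genes). On average Upk3b went from 3.29 to 0.143 CPM and Upk1b from 11.2 to 2.85 CPM, while Lrrn4 went from 0.0539 to 0.271 CPM. The part of these shifts in the guidance genes was not tested.

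Expression was high enough to test 48 of the 72 genes, among 14283 genes in all. The other 24 had a highest group mean of 0.303 CPM, reached by Ntng2. They were 8 Eph receptors (Epha1, Epha3, Epha6, Epha8, Epha10, Ephb1, Ephb2 and Ephb3), Robo2, Robo4, Slit1, Slit3, Ntn5, Ntng1, Ntng2, Unc5a, Unc5d, Unc5cl, Plxnb3, Plxnc1, Sema3d, Sema4f, Sema5a and Sema5b. Epha3, Sema5b and Unc5cl had 0 counts in all 12 libraries. Of the 48 tested genes, 5 (Dcc, Efna3, Epha5, Plxna4 and Sema3g) had an untransformed mean below the 0.342 CPM of the filter and were tested only because they were higher elsewhere.

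Per kilobase of exon, the scale on which genes can be set beside each other, the most abundant members were few and alike in all groups. In RasG12V they were the secreted semaphorin Sema3c at 104 CPM per kilobase and the Eph receptor Epha2, a receptor common in epithelial cells, at 100.1. The plexin Plxnb2 followed at 80.9, the netrin receptor Unc5b at 50.7, the Eph receptor Epha4 at 27.7 and the ephrin Efnb2 at 25.1. In untransformed cells Plxnb2 stood first, at 100.1, before Epha2 at 86.5 and Sema3c at 76.05. The neuropilin Nrp1 (4.23) and the netrin Ntn4 (4.25) were the leading members of smaller families, and Robo1 stood at 1.17. Slit2, the highest of the Slits by counts, had 1.24 ± 0.349 CPM (SD, n = 3) in RasG12V. Many of the genes that changed most were at the low end: Plxna4 reached 0.751 and Sema7a 1.45 CPM per kilobase in RasG12V.

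With RasG12V, 13 of the 48 tested guidance genes rose and 10 fell against untransformed cells (edgeR quasi-likelihood test, Benjamini-Hochberg adjusted p under 0.05 over all 14283 genes). Over all genes 23.4% changed, 11.9% up and 11.5% down, and 47.9% of the guidance genes did. The median absolute log2 fold change was 0.46 for them and 0.23 for all genes; the median signed change was -0.14 and 0.00. Semaphorins went 7 up and 2 down of 16 tested, plexins 2 up and 2 down of 7, neuropilins 0 up and 1 down of 2, ephrins 1 up and 1 down of 8, Eph receptors 1 up and 1 down of 6, and netrin receptors 1 up and 2 down of 3. The single tested Slit rose, 1 of 2 netrins fell, and neither tested Robo passed. Groups did not overlap for 24 of the 48 genes, against 32.3% of all genes. Among the 43 genes whose mean reached the filter level in every group, 9 rose and 10 fell. No share of all genes under the same limit is given, so these counts are not set against the other genes. Without both replicates 3, 15 rose and 17 fell, beside 19.0% and 21.0% of all genes (40.0% together); with only the untransformed and RasG12V libraries in the fit, 9 rose and 3 fell (5.91% and 5.53% of all genes). With both replicates 3 left out, semaphorins went 7 up and 5 down, ephrins 2 up and 4 down and Eph receptors 2 up and 2 down. The count of falls rested on single libraries more than the count of rises, which stayed between 11 and 15 with each library left out. Without untransformed replicate 1, 4 genes fell (8.04% of all genes), and without untransformed replicate 2, 5 fell (8.54%). It was 6 without RasG12V replicate 1 (8.52%), Cdk8 -/- replicate 1 (9.94%), Cdk8 -/- replicate 2 (10.1%) or Cdk19 -/- replicate 1 (10.0%).

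**Figure D1:**
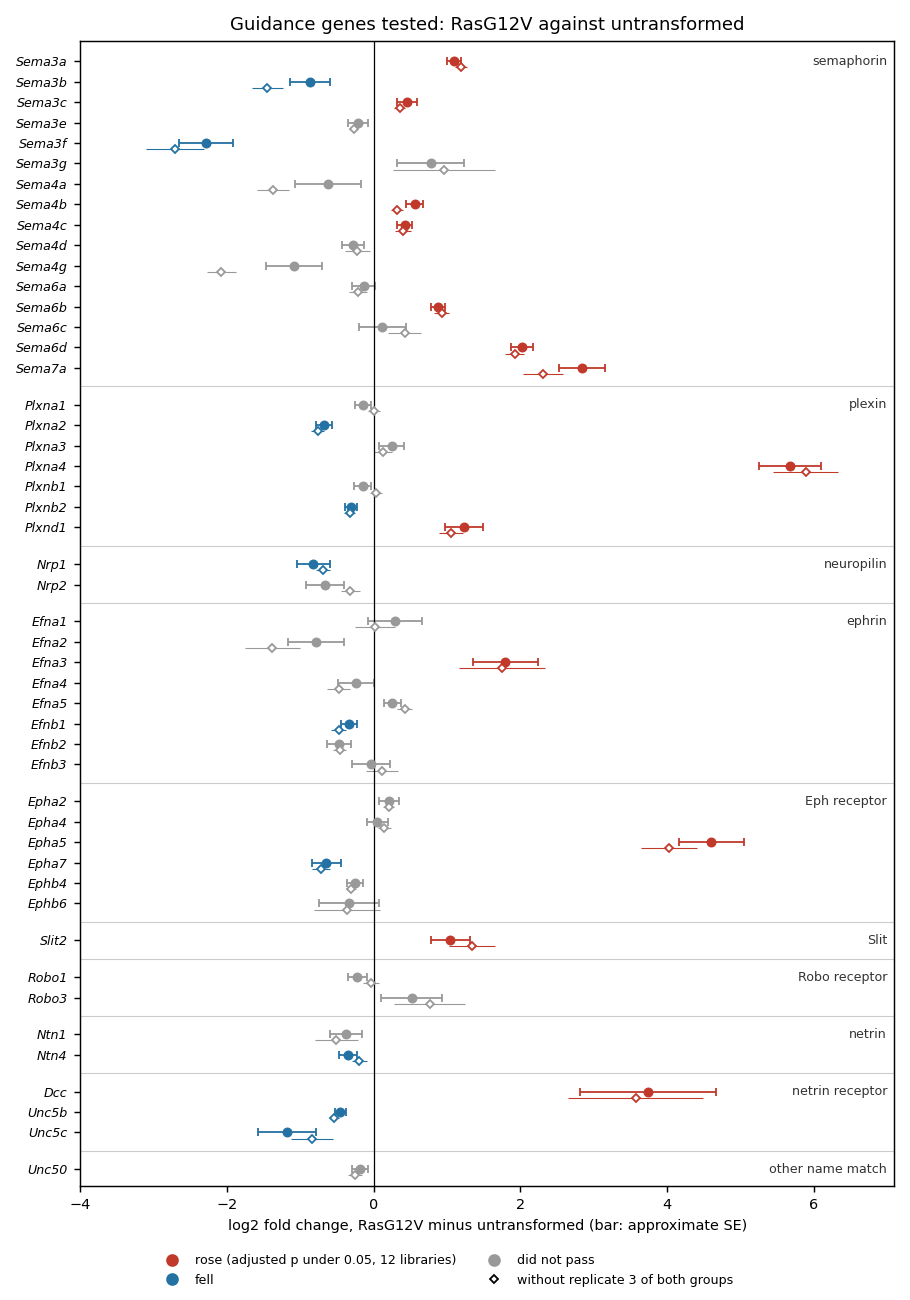
Log2 fold change of each tested guidance gene, RasG12V minus untransformed, by family (filled points with approximate standard error; red rose, blue fell, grey did not pass), and without replicate 3 of both groups (open diamonds). Plxna4, Epha5, Dcc, Sema7a and Sema6d lie farthest to the right and Sema3f farthest to the left among the genes that passed. Sema4g and Sema4a are among the genes whose diamond moves far from the point, as are Efna2, Sema3b, Epha5 and Sema7a.

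For some of the genes that rose, the stretch around a start site is shown, from RefSeq (GRCm38.p6). Each runs from 250 bases before to 50 bases after the start, 5′ to 3′ along the gene. Capitals mark a match to the AP-1 motif TGANTCA or, for Plxnd1, to the TEAD motif GGAATG, read here on the opposite strand as CATTCC. The stretches lie at chr9:57939862-57940161 on the plus strand, chr2:124089719-124090018 on the plus strand, chr17:56133803-56134102 on the minus strand, chr1:36558332-36558631 on the minus strand, chr6:115994956-115995255 on the minus strand and chr5:84417333-84417632 on the minus strand, in the order printed.
Sema7a: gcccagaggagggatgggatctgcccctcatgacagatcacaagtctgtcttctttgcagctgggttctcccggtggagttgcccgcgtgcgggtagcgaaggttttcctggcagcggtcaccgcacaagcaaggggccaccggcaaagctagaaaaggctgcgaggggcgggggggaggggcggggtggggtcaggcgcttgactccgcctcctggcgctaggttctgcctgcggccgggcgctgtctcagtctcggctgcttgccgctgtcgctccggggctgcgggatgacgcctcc
Sema6d: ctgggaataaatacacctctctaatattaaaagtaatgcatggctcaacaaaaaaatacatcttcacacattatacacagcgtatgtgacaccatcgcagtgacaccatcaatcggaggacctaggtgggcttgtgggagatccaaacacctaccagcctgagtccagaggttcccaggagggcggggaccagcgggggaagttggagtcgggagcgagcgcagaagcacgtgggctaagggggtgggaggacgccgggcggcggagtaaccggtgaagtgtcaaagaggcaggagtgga
Sema6b: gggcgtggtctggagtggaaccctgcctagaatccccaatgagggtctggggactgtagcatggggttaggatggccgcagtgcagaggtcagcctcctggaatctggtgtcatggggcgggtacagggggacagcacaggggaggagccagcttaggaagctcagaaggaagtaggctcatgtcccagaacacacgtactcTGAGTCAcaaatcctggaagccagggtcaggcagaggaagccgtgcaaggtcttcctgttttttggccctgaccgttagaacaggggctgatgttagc
Sema4c: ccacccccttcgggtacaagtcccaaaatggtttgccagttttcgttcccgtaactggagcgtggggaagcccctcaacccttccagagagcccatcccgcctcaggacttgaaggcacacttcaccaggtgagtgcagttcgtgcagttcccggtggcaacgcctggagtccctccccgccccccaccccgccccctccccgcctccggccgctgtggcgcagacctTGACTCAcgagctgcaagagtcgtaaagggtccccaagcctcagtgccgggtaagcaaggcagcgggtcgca
Plxnd1: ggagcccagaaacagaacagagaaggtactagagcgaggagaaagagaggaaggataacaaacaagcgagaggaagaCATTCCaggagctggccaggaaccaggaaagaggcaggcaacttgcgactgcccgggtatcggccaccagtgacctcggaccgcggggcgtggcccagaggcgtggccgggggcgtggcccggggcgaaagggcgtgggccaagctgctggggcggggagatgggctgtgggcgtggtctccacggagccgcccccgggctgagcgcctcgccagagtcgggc
Epha5: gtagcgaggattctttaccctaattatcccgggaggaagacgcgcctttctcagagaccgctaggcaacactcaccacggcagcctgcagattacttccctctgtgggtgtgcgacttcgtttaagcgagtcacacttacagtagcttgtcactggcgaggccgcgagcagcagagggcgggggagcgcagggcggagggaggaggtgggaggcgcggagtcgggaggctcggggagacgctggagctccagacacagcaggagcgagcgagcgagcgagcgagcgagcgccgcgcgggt
In Sema6b the AP-1 match begins at -48 and in Sema4c at -22 from the start site, and in Plxnd1 the TEAD match begins at -173. Where RefSeq gave a gene more than 1 start site, the stretch with a match is shown, and otherwise the one farthest upstream. The Sema6b stretch belongs to a start site inside the gene, and the stretch at the gene's own 5′ end, chr17:56140294-56140593, had no match; nor did the other stretch of Sema4c, chr1:36557508-36557807. Sema7a, Sema6d and Epha5, which changed more, had neither set of letters in the stretch. Every gene that rose and had a match is shown, although Sema4c had the smallest rise of all (0.42). Efna3 (1.80), Sema3a (1.10), Slit2 (1.05), Sema4b (0.56) and Sema3c (0.45) also rose, had no match and are not shown. Both strands were searched, and the motifs share no letters at these places. Among the genes that rose, 11 had a promoter in the table, 16 promoters in all, of which 2 held the AP-1 motif and 1 the TEAD motif. Among those that fell, 8 genes with 10 promoters held neither. The tested genes without a call had 28 promoters, of which 1 held the AP-1 and 4 the TEAD motif. For the genes not tested it was 0 and 4 of 24. Of all 32851 promoters of that length, 7.81% held the AP-1 and 14.7% the TEAD motif. A match is a description of the letters only.

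Among the semaphorins, the largest rise was that of Sema7a (chr9:57940112-57962865, plus strand), a membrane-anchored semaphorin that binds plexin C1 and beta1 integrins. Its level was 0.604, 0.804 and 0.596 CPM in untransformed and 3.54, 3.60 and 7.20 in RasG12V libraries. Every RasG12V library was thus well above every untransformed one, and replicate 3 was clearly the highest of its group. The log2 fold change was 2.84 (approximate SE 0.31, edgeR adjusted p = 4.65e-05), and 2.31 without both replicates 3. In the libraries labelled Cdk8 -/- it read 3.68, 4.88 and 4.02 CPM and in those labelled Cdk19 -/- 3.99, 2.87 and 4.12, within or near the RasG12V range. Plxnc1, its plexin, was not tested, with a highest group mean of 0.0365 CPM.

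Sema6d (chr2:124089969-124667770, plus strand), a transmembrane ligand of plexin A1, was at 10.8, 8.29 and 10.6 CPM in untransformed and 36.1, 36.97 and 47.7 in RasG12V libraries. It rose by 2.02 on the log2 scale (SE 0.15, edgeR adjusted p = 1.51e-06), with no overlap. Its relative Sema6b (chr17:56123085-56140343, minus strand), a ligand of plexin A4, was at 9.73, 9.53 and 9.75 CPM and then 17.7, 19.4 and 16.2. The replicates of both groups lay close together, and the rise was 0.88 (SE 0.09, edgeR adjusted p = 2.64e-05). Under the kinase labels Sema6b read 18.6, 17.9 and 18.99 CPM (Cdk8 -/-) and 20.4, 20.3 and 21.4 CPM (Cdk19 -/-), and Sema6d 31.7, 29.9 and 36.1 and 32.3, 28.4 and 35.6.

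The secreted class 3 semaphorins split. Sema3a (chr5:13125414-13602565, plus strand), the classical repellent that acts through Nrp1 and A-type plexins, went from 65.6, 69.8 and 70.1 CPM to 150.4, 164 and 126. Every RasG12V library was well above every untransformed one, with a log2 fold change of 1.10 (SE 0.10, edgeR adjusted p = 7.90e-06). Sema3f (chr9:107681500-107710475, minus strand), which acts through Nrp2, went the other way, from 2.10, 2.41 and 2.89 CPM to 0.364, 0.327 and 0.784, and fell by 2.28 (SE 0.37, edgeR adjusted p = 7.26e-04). Sema3b (chr9:107597674-107609229, minus strand) read 4.76, 4.14 and 3.88 CPM in untransformed and 1.49, 1.80 and 3.62 in RasG12V libraries. Its RasG12V replicate 3 nearly reached the untransformed range without entering it, and the fall of 0.87 (SE 0.27, edgeR adjusted p = 0.0356) lost its call without any 1 of 9 of the 12 libraries, with adjusted p of 0.0501 to 0.127. Without both replicates 3 the fall was 1.45 (adjusted p = 1.57e-05). In the libraries labelled Cdk8 -/- and Cdk19 -/-, Sema3a read 144, 129 and 155 CPM and 139, 139 and 142 CPM, Sema3f 0.991, 0.488 and 0.974 and 0.670, 0.415 and 0.770, and Sema3b 2.16, 2.33 and 2.52 and 2.26, 1.80 and 2.04.

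Smaller rises were those of Sema4b (0.56, SE 0.12, edgeR adjusted p = 0.00425), Sema3c (0.45, SE 0.14, adjusted p = 0.0299) and Sema4c, a ligand of plexin B2 (0.42, SE 0.10, adjusted p = 0.00849). Sema3c, the most abundant semaphorin, was at 543 ± 115 CPM in untransformed and 744 ± 76.6 CPM in RasG12V (SD, n = 3). Its call was lost without RasG12V replicate 1 (adjusted p = 0.0725) or RasG12V replicate 2 (0.085). The other 7 tested semaphorins, Sema3e, Sema3g, Sema4a, Sema4d, Sema4g, Sema6a and Sema6c, did not pass with all libraries.

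**Figure D2:**
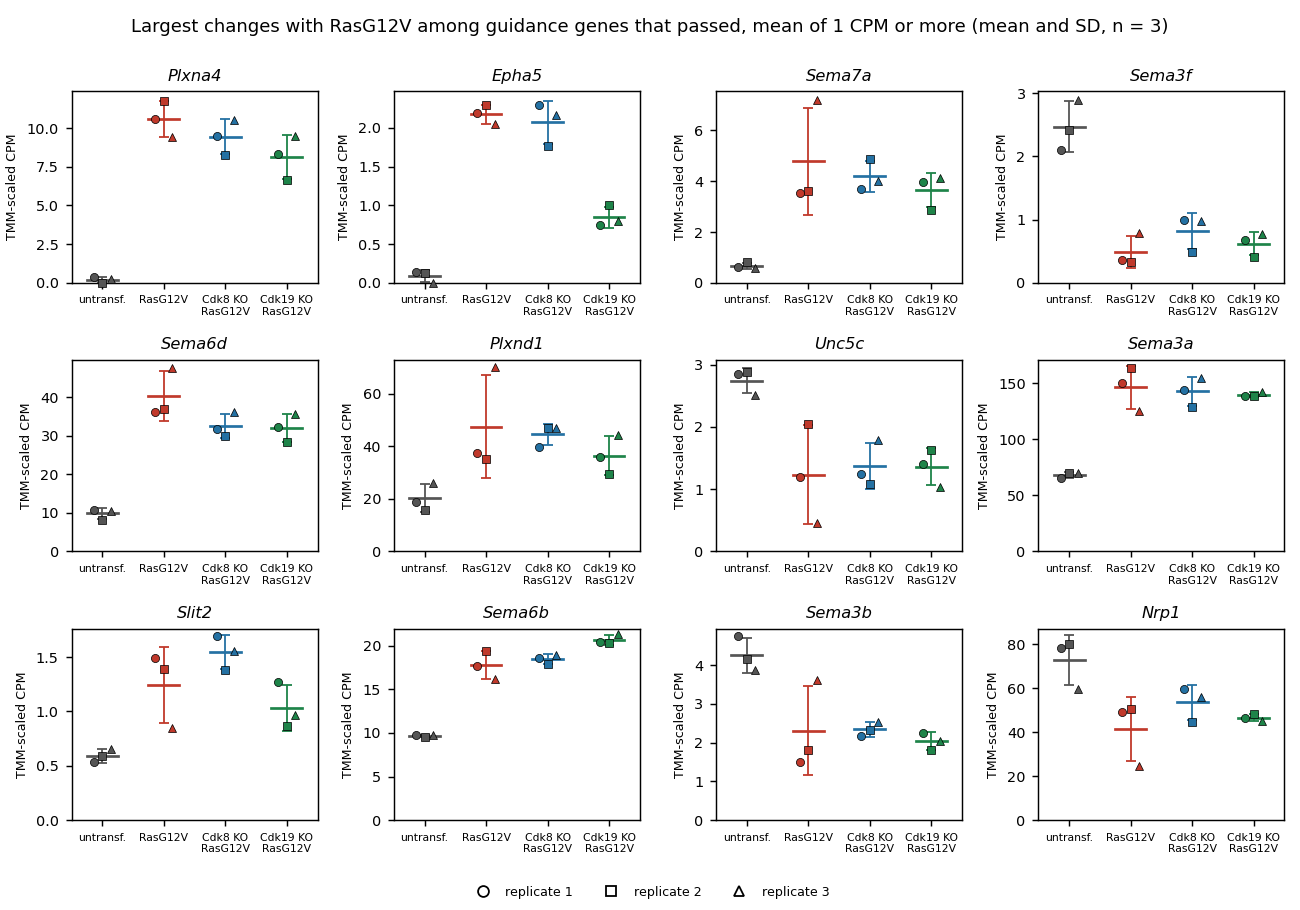
TMM-scaled CPM of the 12 guidance genes with the largest changes between RasG12V and untransformed cells among those that passed the threshold and reached a mean of 1 CPM in either group, in each of the 12 libraries (points; marker shape gives the replicate; line and bar, mean and SD, n = 3). The 3 untransformed libraries lie apart from the RasG12V libraries in every panel, and the libraries labelled as knockouts mostly lie near RasG12V. Exceptions are Epha5 in those labelled Cdk19 -/- and Nrp1 in Cdk8 -/- replicates 1 and 3 (59.9 and 56.3 CPM), which lie above every RasG12V library.

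Of the plexins, Plxna4 (chr6:32144268-32588192, minus strand), an A-type plexin that responds to Sema3a with a neuropilin and to class 6 semaphorins directly, rose most of all 48 genes. It was at 0.391, 0 and 0.239 CPM in untransformed and 10.6, 11.8 and 9.40 in RasG12V libraries. Untransformed cells thus had next to none, and the rise was 5.67 on the log2 scale (SE 0.42, edgeR adjusted p = 1.93e-06), between 5.07 without untransformed replicate 2 and 6.39 without untransformed replicate 1. The libraries labelled Cdk8 -/- read 9.52, 8.27 and 10.6 CPM and those labelled Cdk19 -/- 8.36, 6.64 and 9.47. Plxnd1 (chr6:115954811-115995005, minus strand), the direct receptor of Sema3e, went from 18.6, 15.9 and 26.2 CPM to 37.4, 35.1 and 69.96. RasG12V replicate 3 was far above the other RasG12V libraries, which in turn exceeded every untransformed one, and the rise was 1.23 (SE 0.26, edgeR adjusted p = 0.00444) with it and 1.06 without both replicates 3. Under the labels Cdk8 -/- and Cdk19 -/- it read 39.8, 46.7 and 46.9 and 35.8, 29.3 and 44.2 CPM. Its ligand Sema3e was at 240.2 ± 46.7 CPM and 207 ± 27.3 CPM (SD, n = 3), and did not pass (edgeR adjusted p = 0.283).

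Plxna2 fell by 0.68 (SE 0.11, edgeR adjusted p = 5.88e-04), from 52.6, 49.2 and 40.6 CPM to 29.3, 31.4 and 28.5. Plxnb2, the most abundant plexin and the receptor of Sema4c, fell by 0.31 (SE 0.08, adjusted p = 0.0129), from 788, 724 and 808 CPM to 598, 621 and 655. Neither gene overlapped between the groups, but the Plxnb2 call was lost without RasG12V replicate 1 (adjusted p = 0.0651) or RasG12V replicate 2 (0.0529). The A-type plexins therefore ran from a large rise (Plxna4) through no call (Plxna1 at -0.14 and Plxna3 at 0.25) to a fall (Plxna2). Plxnb1 did not pass (-0.15, SE 0.12).

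Nrp1 (chr8:128358604-128503363, plus strand), the co-receptor of Sema3a and also of VEGF, was at 78.4, 80.3 and 59.8 CPM in untransformed and 49.2, 50.4 and 24.5 in RasG12V libraries. The groups did not overlap, and RasG12V replicate 3 was the lowest library of all 12. The fall was 0.82 (SE 0.22, edgeR adjusted p = 0.0186); the call was lost without untransformed replicate 1 (0.0585) or untransformed replicate 2 (0.062), and without both replicates 3 the fall was 0.69 (adjusted p = 2.54e-05). The libraries labelled Cdk8 -/- read 59.9, 44.7 and 56.3 CPM and those labelled Cdk19 -/- 46.6, 48.1 and 45.2. Nrp2, the co-receptor of Sema3f, was at 10.7, 10.8 and 11.2 CPM and then 8.16, 9.32 and 3.38. It did not overlap either, yet did not pass (-0.66, SE 0.26, edgeR adjusted p = 0.0940).

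Of the Eph receptors, Epha5 (chr5:84054761-84417382, minus strand), a receptor of A-type ephrins best known from brain, was at 0.142, 0.124 and 0 CPM in untransformed and 2.19, 2.29 and 2.05 in RasG12V libraries. It was close to the limit of a count of 0 in untransformed cells, with 8 counts in all, and rose by 4.60 (SE 0.44, edgeR adjusted p = 1.47e-05), and by 3.995 without untransformed replicate 3. Epha7 fell by 0.64 (SE 0.19, adjusted p = 0.0293), from 26.4, 26.8 and 16.3 CPM to 16.2, 16.5 and 11.9. The groups overlapped for Epha7, since untransformed replicate 3 was below RasG12V replicate 2, and the call was lost without untransformed replicate 1 (0.106), untransformed replicate 2 (0.111) or RasG12V replicate 3 (0.0633). The abundant receptors Epha2 (0.21, SE 0.14), Epha4 (0.05, SE 0.14) and Ephb4 (-0.25, SE 0.11) did not pass.

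Among the ephrins, Efna3, a ligand of A-type Eph receptors, was low throughout, at 0.213, 0.0928 and 0.119 CPM in untransformed and 0.656, 0.368 and 0.452 in RasG12V libraries. It rose by 1.80 (SE 0.44, edgeR adjusted p = 0.0104), a call lost without untransformed replicate 2 (0.0514). Efnb1, a transmembrane ligand of B-type receptors, fell by 0.33 (SE 0.11, adjusted p = 0.0376), from 22.01, 20.01 and 19.9 CPM to 15.4, 15.1 and 18.6. That fall lost its call without any 1 of 8 of the 12 libraries, with adjusted p of 0.0585 to 0.149. Efnb2, the most abundant ephrin and a ligand of Ephb4, was at 276, 253 and 189 CPM and 196, 192 and 129 CPM and missed the threshold (-0.47, SE 0.16, edgeR adjusted p = 0.0534).

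Slit2 (chr5:47983138-48307733, plus strand), a secreted ligand of Robo receptors, was at 0.532, 0.588 and 0.656 CPM in untransformed and 1.49, 1.39 and 0.844 in RasG12V libraries. The groups did not overlap, and the rise was 1.05 (SE 0.27, edgeR adjusted p = 0.0139), lost without untransformed replicate 1 (0.0561) or RasG12V replicate 1 (0.0593). Its receptor Robo1 was at 22.5 ± 4.20 CPM and 19.4 ± 1.10 CPM (SD, n = 3) and did not pass (edgeR adjusted p = 0.254), and neither did Robo3 (0.52, SE 0.41). The libraries labelled Cdk8 -/- held 1.70, 1.38 and 1.55 CPM of Slit2 and those labelled Cdk19 -/- 1.27, 0.864 and 0.970.

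The 3 tested netrin receptors all passed, but Dcc was tested only because it was higher outside untransformed cells. Unc5a and Unc5d were too low to test. Unc5b, the most abundant and a receptor known from endothelial sprouting, fell from 449.8, 425 and 427 CPM to 299, 309.5 and 343, by 0.45 (SE 0.07, edgeR adjusted p = 8.78e-04). Unc5c (chr3:141465216-141834924, plus strand) fell from 2.84, 2.88 and 2.50 CPM to 1.20, 2.04 and 0.452. The RasG12V libraries were scattered but all below the untransformed ones; the fall of 1.18 (SE 0.39, edgeR adjusted p = 0.0470) was lost without any 1 of 11 of the 12 libraries, with adjusted p of 0.0525 to 0.107. Unc5c read 1.24, 1.08 and 1.79 CPM under the label Cdk8 -/- and 1.41, 1.62 and 1.04 under Cdk19 -/-. Dcc, the receptor that pairs with Unc5 proteins, had 28 counts in RasG12V and 2 in untransformed libraries, both of them in replicate 2, a ratio of 15.2 per count total (95% counting interval 3.83 to 132, counting error only; edgeR adjusted p = 0.0117). Of the netrins, Ntn4, a basement membrane protein, fell by 0.35 (SE 0.12, adjusted p = 0.0497), from 19.03, 17.9 and 23.7 CPM to 15.2, 17.5 and 15.01. That call was lost without any 1 of 11 of the 12 libraries (0.0503 to 0.153) and without both replicates 3 (0.159). Ntn1, the netrin of the classical attraction assays, did not pass (-0.37, SE 0.22).

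Across all 9 transformed libraries, 13 of the 48 genes were above and 8 below every untransformed library, against 23.1% of all genes in either direction. The 13 were the same genes that rose with RasG12V, a match partly built in, since the RasG12V libraries are among the 9. Dcc, Efna3, Epha5 and Plxna4 were also tested only because they were higher outside untransformed cells. The 8 were Efnb1, Nrp2, Plxna2, Plxnb2, Sema3b, Sema3f, Unc5b and Unc5c.

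The libraries that stood apart moved single guidance genes strongly. Sema4g, a transmembrane semaphorin, was at 56.1, 43.5 and 30.2 CPM in untransformed and 12.9, 10.9 and 37.1 in RasG12V libraries. RasG12V replicate 3 lay within the untransformed range and the other two RasG12V libraries far below it. With all libraries the change was -1.08 (SE 0.38, edgeR adjusted p = 0.0606); without both replicates 3 it was -2.07 (adjusted p = 6.53e-06). Sema4a, which also acts on immune cells, showed the same pattern, at 7.24, 6.001 and 11.03 CPM and 2.62, 2.54 and 10.4 CPM. Its change was -0.62 with all libraries (edgeR adjusted p = 0.369) and -1.37 without both replicates 3 (adjusted p = 4.37e-05). In the libraries labelled Cdk8 -/- and Cdk19 -/-, Sema4g read 13.1, 17.4 and 15.7 CPM and 12.8, 10.5 and 15.9 CPM, all below the untransformed range. Nrp2 and Efnb2 showed the reverse, with RasG12V replicate 3 below the rest of its group. These 4 genes were chosen after their values were seen.

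**Figure D3:**
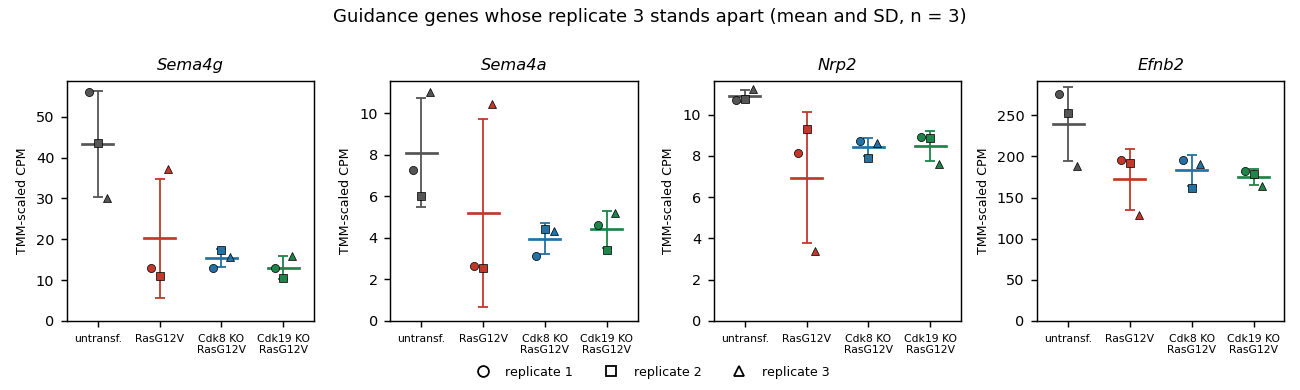
TMM-scaled CPM of Sema4g, Sema4a, Nrp2 and Efnb2 in each of the 12 libraries (points; triangles are replicate 3; line and bar, mean and SD, n = 3). RasG12V replicate 3 is the high point of its group for Sema4g (37.1 CPM) and Sema4a (10.4 CPM) and the low point for Nrp2 (3.38 CPM) and Efnb2 (129 CPM).

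Without both replicates 3, 22 of the 23 calls remained, Ntn4 was lost and 10 genes were gained. Beside Sema4g and Sema4a these were Sema3e (-0.27, edgeR adjusted p = 0.00282), Efna2 (-1.38), Efna4 (-0.48), Efna5 (0.42), Efnb2 (-0.46), Epha2 (0.21), Ephb4 (-0.30) and Unc50 (-0.25). In log2 CPM, RasG12V replicate 3 differed from the mean of its group's other libraries by a median of 0.37 over the 48 guidance genes and 0.28 over all genes. Untransformed replicate 3 differed by 0.30 and 0.20. The cause of these differences was not tested.

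The genes that carry guidance signals inside the cell, and their co-receptors, were read from 4 lists chosen by pathway; whether a list changed more often than other genes was not tested. Of 26 tested semaphorin and plexin signalling genes, 5 rose and 3 fell (30.8% called, beside 23.4% of all genes), with a median log2 fold change of 0.13; without both replicates 3 it was 9 and 4, beside 40.0% of all genes. They included Crmp1 (2.06, SE 0.18, edgeR adjusted p = 7.47e-06) and Dpysl3 (0.65, SE 0.08), collapsin response mediators that relay Sema3a signals, and Fyn (0.99), a kinase in the same relay, as well as the actin oxidase gene Mical3 (0.58). Rnd3 (-0.68) and Mras (-1.22), small GTPases, fell. Of 28 tested Eph and ephrin signalling genes, 9 rose and 4 fell (46.4%), with a median of 0.11. Without both replicates 3 it was 11 and 6 (60.7%, beside 40.0% of all genes). Anks1b (1.06), Rasa1, a GTPase activating protein for Ras (0.48), the phosphatase gene Inppl1 (0.49) and the adaptor Nck1 (0.36) rose, while Sla (-2.31) and Chn2, a Rac regulator (-0.38), fell.

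Of 25 tested Robo and netrin signalling genes, 4 rose and 4 fell (32.0%), with a median of 0.05. Srgap3, whose product binds the Robo cytoplasmic tail, went from an average of 0.115 to 1.42 CPM (3.56, SE 0.48, edgeR adjusted p = 1.95e-04). The kinase gene Pak3 (1.39) and the actin regulator Cap1 (0.83) also rose, and Ablim1, an actin-binding protein of the netrin pathway (-1.85, SE 0.11), Cables1 (-1.08) and the Rac activator Elmo1 (-0.85) fell. Of 17 tested co-receptors and accessory ligands, 4 rose and 5 fell (52.9%), with a median of 0.02. Without both replicates 3 it was 3 and 6 (52.9%, beside 40.0% of all genes). Among the heparan sulphate proteoglycans, which bind Slits, Sdc3 (1.76) and Sdc2 (0.57) rose and Sdc1 (-0.92) and Gpc1 (-0.58) fell; Dscaml1 (-1.18) and the ephrin-cleaving protease gene Adam10 (-0.32) fell as well. In the comparisons of the kinase labels, edgeR called 0 of the 96 different genes tested from these 4 lists with all libraries. The count was also 0 with limma-voom. DESeq2, with 114 list genes, called 1 in the Cdk8 comparison, beside 0.169% of the genes to which it gave an adjusted p. It called 0 in the Cdk19 comparison (0.443%) and 5 between the labels (0.712%). At an unadjusted p under 0.05 edgeR counted 9 of its 96 for Cdk8 (9.38%, beside 6.1% of all genes). For Cdk19 it was 9 (9.38%, beside 7.62%) and between the labels 14 (14.6%, beside 7.19%). When both replicates 3 were left out, edgeR called 3 (beside 1.59% of all genes), 2 (2.01%) and 12 (5.32%).

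Loss of Cdk8 or Cdk19, as labelled, left the guidance genes without a call. Against RasG12V, 0 of 48 passed in the libraries labelled Cdk8 -/- (edgeR; 0.0% of all genes) and 0 of 48 in those labelled Cdk19 -/- (0.014% of all genes). Between both sets of libraries 0 of 48 passed, beside 0.105% of all genes. At an unadjusted p under 0.05 the counts were 3 for Cdk8 (6.25%, beside 6.10% of all genes), 6 for Cdk19 (12.5%, beside 7.62%) and 6 between the labels (12.5%, beside 7.19%). DESeq2 called 0, 1 and 2 guidance genes, beside 0.169%, 0.443% and 0.712% of the genes to which it gave an adjusted p, and limma-voom 0 in each, beside 0.0%, 0.014% and 0.112%. Without both replicates 3, edgeR called 0 guidance genes for Cdk8 (1.59% of all genes), 1 for Cdk19 (2.01%) and 5 between the labels (5.32%). The libraries did not overlap for 4 genes in the Cdk8 comparison (12.5% of all genes), 7 in the Cdk19 comparison (14.5%) and 8 between the labels (20.7%). The first 2 comparisons share the RasG12V libraries, so their values are only set side by side. The genes named next were chosen after their values were seen, for an unadjusted p under 0.05 or a call with another tool.

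Epha5 had the largest difference. After its rise with RasG12V it read 2.19, 2.29 and 2.05 CPM in RasG12V, 2.30, 1.76 and 2.16 in libraries labelled Cdk8 -/- and 0.741, 1.002 and 0.803 in those labelled Cdk19 -/-. All of the last were below every other transformed library and above every untransformed one. The change was -1.35 under Cdk19 -/- (SE 0.32, edgeR adjusted p = 0.284) and -0.07 under Cdk8 -/- (SE 0.30, adjusted p = 0.981). Between the labels, Cdk8 -/- minus Cdk19 -/-, it was 1.28 (SE 0.32, adjusted p = 0.247). The Cdk19 difference passed with DESeq2 (adjusted p = 0.00307), without a filter on low counts (edgeR, 0.0176), without untransformed replicate 3 (edgeR, 0.0304) and without both replicates 3 (edgeR, 0.00468). The difference between the labels passed under the same alternatives, with adjusted p of 0.00269, 0.0228, 0.0194 and 0.00138. It also passed with only the 2 groups compared in the fit (edgeR, 0.00377).

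The netrin receptor Unc5b differed in both directions around RasG12V. It read 299, 309.5 and 343 CPM in RasG12V, 362, 343 and 376 in libraries labelled Cdk8 -/- and 282, 266 and 293 in those labelled Cdk19 -/-. The Cdk8 set was above and the Cdk19 set below all RasG12V libraries, with the untransformed ones higher still. The changes were 0.18 (SE 0.07, edgeR adjusted p = 0.796) and -0.18 (SE 0.07, adjusted p = 0.618). Between the labels the difference was 0.36 (SE 0.07, adjusted p = 0.117), which passed with DESeq2 (0.00138), without RasG12V replicate 3 (edgeR, 0.0141) and without both replicates 3 (5.66e-04). It also passed with only the 2 groups compared in the fit (edgeR, 0.00268).

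Smaller differences between the labels were those of Sema6a, a transmembrane semaphorin, at 10.3, 10.01 and 11.4 CPM under Cdk8 -/- and 8.25, 7.67 and 7.80 CPM under Cdk19 -/- (0.42, SE 0.16, edgeR adjusted p = 0.562). Ntn4 read 17.4, 16.9 and 18.3 and 14.1, 14.2 and 12.6 CPM (0.36, SE 0.12, adjusted p = 0.457). Efnb1 read 17.5, 16.9 and 16.00 and 14.1, 14.3 and 12.4 CPM (0.31, SE 0.11, adjusted p = 0.504). None of these 3 genes overlapped between the labels, and each was higher under Cdk8 -/-. Without both replicates 3, all of them passed together with Epha5 and Unc5b, 5 genes in all (edgeR adjusted p of 0.0162 for Sema6a, 0.0172 for Ntn4 and 0.0408 for Efnb1). With only the 2 groups compared in the fit, Sema6a (edgeR adjusted p = 0.0361) and Ntn4 (0.0326) passed and Efnb1 did not. Slit2 was at 1.54 and 1.03 CPM on average (0.57, SE 0.25) and passed in none of the alternatives.

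**Figure D4:**
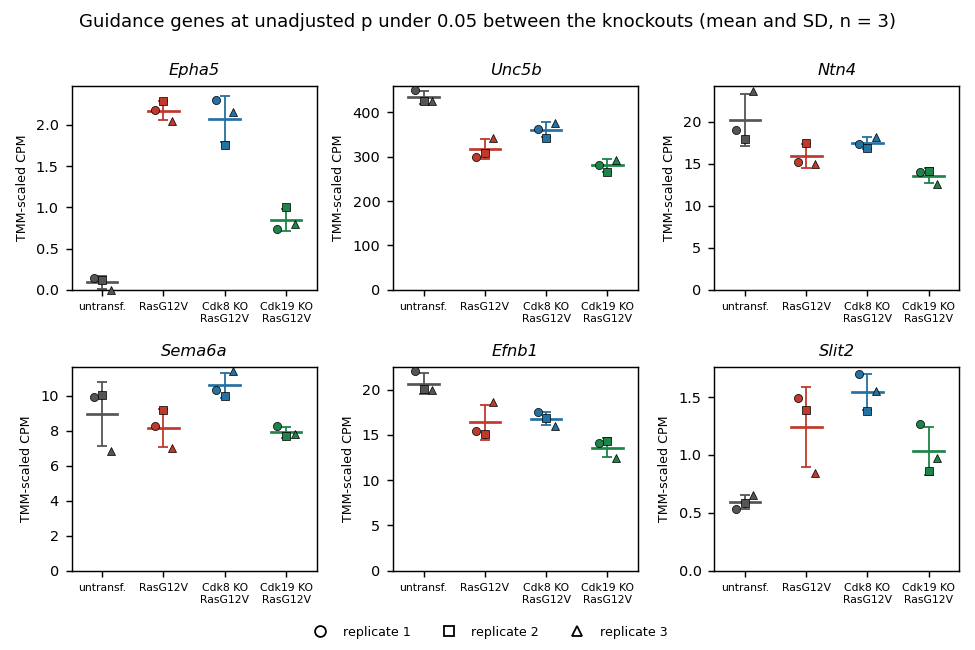
TMM-scaled CPM of the 6 guidance genes at an unadjusted p under 0.05 between the libraries labelled Cdk8 -/- and Cdk19 -/-, in each of the 12 libraries (points; marker shape gives the replicate; line and bar, mean and SD, n = 3). Epha5 lies at 0.741 to 1.00 CPM under Cdk19 -/- against 1.76 to 2.30 CPM under Cdk8 -/-; none of the 6 passed the adjusted threshold with all libraries.

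Of the remaining genes at an unadjusted p under 0.05, Sema6d was at 40.2 ± 6.46 CPM in RasG12V, 32.6 ± 3.16 under Cdk8 -/- and 32.1 ± 3.60 under Cdk19 -/- (SD, n = 3; -0.31 and -0.33 against RasG12V). Sema6b (0.22) and Dcc (1.21) were higher under Cdk19 -/- than in RasG12V, with no overlap between libraries and edgeR adjusted p of 0.597 and 0.638. Plxna4, the gene that changed most with RasG12V, was at 10.6 ± 1.19, 9.45 ± 1.14 and 8.15 ± 1.43 CPM in RasG12V, Cdk8 -/- and Cdk19 -/- libraries (SD, n = 3), with log2 fold changes of -0.16 (SE 0.28) and -0.38 (SE 0.29) against RasG12V. For Sema3a they were -0.04 (SE 0.10) and -0.06 (SE 0.10). A p that misses the threshold does not show that levels were equal.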

How the data were processed

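Per the labels, total RNA was depleted of ribosomal RNA and libraries were made with a TruSeq RNA kit. Per the submitters' processing notes, reads were checked with FastQC and aligned with STAR 2.6.0a to GRCm38.p6; the annotation release is not given in the sources used here. The authors deposited raw counts per Ensembl gene, 1 table a library; the reverse-strand column was used, since it held at least 24.7 times the counts of the forward column in every library. Reads without a gene (33.0% to 34.8%, unmapped, multimapping, outside genes or ambiguous) were left out. Reads that map to several places are not counted, so close paralogs are uncertain.

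Symbols, biotypes and positions came from GENCODE M21 (GRCm38), which matched 54079 of 54146 identifiers; 3 non-coding genes that matched the name rule were left out. Counts of all 12 libraries were fitted together with the quasi-likelihood test of edgeR 4.0.16 under R 4.3.3 (genes filtered with filterByExpr, TMM scaling, robust glmQLFit), with Benjamini-Hochberg adjustment over 14283 genes and a threshold of 0.05. The approximate SE was obtained as log2 fold change over the root of F, without its sign. Alternatives used DESeq2 1.42.0, limma-voom (limma 3.58.1), RLE and upper quartile scaling, other filters, unstranded counts, only the groups compared, a replicate block and left-out libraries. The procedure was tested on simulated data. Promoters came from the RefSeq table for GRCm38.p6, which matched 62 of the 72 genes. Figures were drawn with matplotlib 3.10.9.

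The genes, lists and alternatives were chosen with earlier results of these data known. Every gene past the threshold is named; values for each library are given for the 12 with the largest changes among those reaching a mean of 1 CPM in 1 of the groups compared, and for others where a result turns on them. Pathway genes are named only where they passed, at most 6 a list by adjusted p. The result of 1 further list is not reported here.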

Additional observations from a re-analysis of the deposited data

How the results depend on the processing

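Of the 23 guidance genes called between RasG12V and untransformed cells, 12 passed in every alternative that could be fitted: Dcc, Epha5, Plxna2, Plxna4, Plxnd1, Sema3a, Sema3f, Sema4c, Sema6b, Sema6d, Sema7a and Unc5b. Over 503 values of genes and alternatives, 430 kept direction and call, 73 lost the call and 0 turned direction. The count was 12 (of 46 tested) when only the 2 groups compared were fitted, where fewer libraries estimate the spread. Over all genes 5.91% rose and 5.53% fell in that fit. The count ran from 16 to 28 with each library left out (11 to 15 rises and 4 to 13 falls). It ran from 19 to 24 with the other tools, scalings, filters and the unstranded counts. Without both replicates 3 it was 32, beside 40.0% of all genes. No share of all genes is set beside these ranges, so they describe only how far the count moved. Scalings moved the median log2 fold change of all genes by at most 0.02.

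For the libraries labelled Cdk19 -/- against RasG12V, the count of 0 became 1 (Epha5) in 3 alternatives. These were DESeq2 (0.443% of the genes given an adjusted p), no filter on low counts, and the fit without both replicates 3 (2.01% of all genes). It was 0 to 1 with each library left out. Between the labels the count became 2 with DESeq2 (0.712% of the genes given an adjusted p) and 5 without both replicates 3 (5.32% of all genes). It became 1 with no filter on low counts and 4 with only the 2 groups compared, and was 0 to 1 with each library left out. For fits without a share of all genes, the counts are not read as a result about guidance genes. Against RasG12V, the libraries labelled Cdk8 -/- had a count of 0 in every alternative. The cause of these changes was not tested. Depth limits the low genes: Dcc, Epha5, Efna3 and Sema3g were near the level of 3 counts in untransformed cells.

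Replicate numbers are shared between groups, but the labels do not say what they mark. Deviations of same-numbered libraries from their group means correlated at -0.168 to 0.282, and not every library correlated best with its own number, so the numbers were not taken to pair libraries. With the replicate block, 24 guidance genes were called between RasG12V and untransformed cells and 0 in each of the other comparisons. No share of all genes is given for that fit.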
